A study of Arabidopsis thaliana with 2 samples.

Results

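Glutathione reductase and the 2-Cys peroxiredoxin both belong to the thiol chemistry by which plant cells remove peroxides. Glutathione is the main soluble thiol of the leaf, and when it gives up electrons, for instance to regenerate ascorbate, it becomes glutathione disulfide. Glutathione reductase turns the disulfide back into glutathione with electrons from NADPH, whereas 2-Cys peroxiredoxins reduce hydrogen peroxide in the chloroplast with their own cysteines and are recharged by thioredoxins. Arabidopsis has 1 gene for the glutathione reductase of chloroplasts and mitochondria, GR (AT3G54660, also called ATGR2 and EMB2360), and 1 for the cytosolic enzyme, GR1 (AT3G24170). The third gene, AT3G11630, encodes a 2-Cys peroxiredoxin of the chloroplast. The 3 genes were chosen by their identity in the platform's annotation, with earlier results of these data known. The annotation assigned 1 probe set to each, 3 of the 3592 genes named on the array, and all 3 lie on chromosome 3.

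The RNA was from Col-0 plants of Arabidopsis thaliana, rosette leaves at growth stage 3.5, in a series on the action of nitric oxide, a gaseous signal that plants make and respond to. After 1 week of stratification at 4 °C, plants had stood in compost at 22 °C in light for 24 h a day. Each of the groups NOT and WDC had 1 oligonucleotide array with 8297 probe sets, on RNA that the treatment label, given for NOT but worded for each sample, describes as 4 pooled experiments with about 8 leaves each. The extraction label speaks of seedlings, a difference from the tissue label that the labels do not settle. The labels name no agent, dose or duration for either code and do not say which is the control, so all ratios are NOT over WDC and no array is taken as the treated one. Because each group was measured on a single array, none of the differences could be checked against replicates and no p-value was computed.

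The organellar GR was higher and both other genes were lower in the NOT array. GR had a scaled signal of 91.5 in WDC and 177.4 in NOT, a 1.94-fold higher signal in NOT (log2 ratio 0.96). GR1 had 285.6 in WDC and 201.0 in NOT, 1.42-fold lower in NOT (log2 ratio -0.51). The peroxiredoxin AT3G11630 had 632.2 in WDC and 436.2 in NOT, 1.45-fold lower in NOT (log2 ratio -0.54). GR thus passed a 1.5-fold rule (log2 0.58), as did 5.87% of measured probe sets as higher and 8.73% as lower in NOT, and GR1 and AT3G11630 fell short of it. GR in turn fell short of a 2-fold rule, which 1.41% of probe sets passed in its direction. In bulk leaf RNA, fewer cells of a type and less RNA per cell cannot be told apart.

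All 6 signals were well above the floor of 12.5, below which no ratio was taken. The dimmest of them, GR in WDC, was 7.32 times the floor, and the brightest, AT3G11630 in WDC, was 50.6 times it. Probe sets differ in how strongly they bind, so levels of the 3 genes are not compared with each other and each gene is described by its own ratio between arrays.

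**Figure D1:**
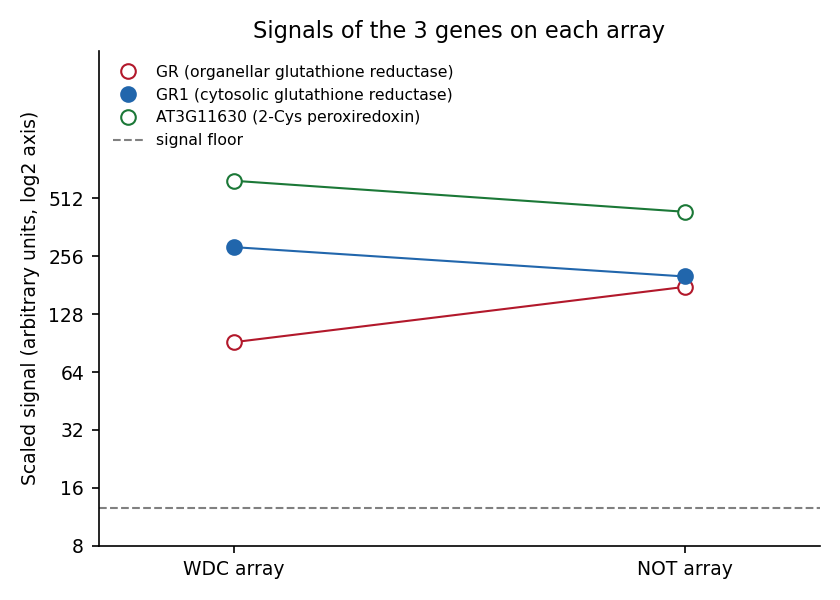
Scaled signal (log2 axis, arbitrary units) of GR, GR1 and AT3G11630 on the WDC and NOT arrays, 1 array each, with the signal floor of 12.5 dashed. Open symbols are probe sets marked for shared sequence. The line of GR rises from 91.5 to 177.4, and the lines of GR1 and AT3G11630 fall from 285.6 to 201.0 and from 632.2 to 436.2.

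Set between compartments, the ratios of the 2 glutathione reductases went opposite ways. The log2 ratio of GR exceeded that of GR1 by 1.46. The fold between arrays thus differed 2.75 times between the RNA signals for the organellar and the cytosolic enzyme. The probe sets of GR and AT3G11630 are marked for shared sequence, so their ratios may include other transcripts. Within the chloroplast's own set, GR exceeded AT3G11630 by 1.49, or 2.81 times. GR1 and AT3G11630, in different compartments, differed by 0.03. For scale, 93 genes were measured by more than 1 probe set, and their ratios scattered around each gene's mean with an SD of 0.20 (log2). The widest range between probe sets of 1 gene was 0.87, so 0 of the 93 genes spread as far as GR stood from GR1 or from AT3G11630, whereas 80 of them spread at least as far as GR1 stood from AT3G11630. This scatter covers probe noise, in part over probes that overlap, and not the variation between plants.

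Against the whole array, GR stood near the upper end and the other 2 genes stood on the lower side without reaching its far end. The floor was passed on both arrays by 4753 probe sets, and the 1.5-fold rule was passed by 5.87% of them in the direction higher in NOT (279) and by 8.73% in the direction lower in NOT (415). Scaling the arrays to the spiked-in hybridisation controls shifted every ratio up by 0.14 and gave 504 higher and 280 lower. A log2 ratio above that of GR was found for 73 probe sets (1.54%). Ratios below that of GR1 were found for 520 (10.9%) and below that of AT3G11630 for 464 (9.76%). The median log2 ratio of all measured probe sets was 0.00, with quartiles of -0.24 and 0.22, so each of the 3 genes lay outside the middle 50% of the array.

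The brightest probe sets scattered less than the others, and the same placement was also made among probe sets of similar mean signal. GR fell in the third of 4 equal classes of signal counted from the dimmest, where 6.73% were at least 1.5-fold higher and 26 of 1188 stood above GR. GR1 and AT3G11630 fell in the brightest class, where quartiles were -0.13 and 0.22 and 5.64% were at least 1.5-fold lower. There 79 of 1188 probe sets stood below GR1 (6.65%) and 70 below AT3G11630 (5.89%).

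**Figure D2:**
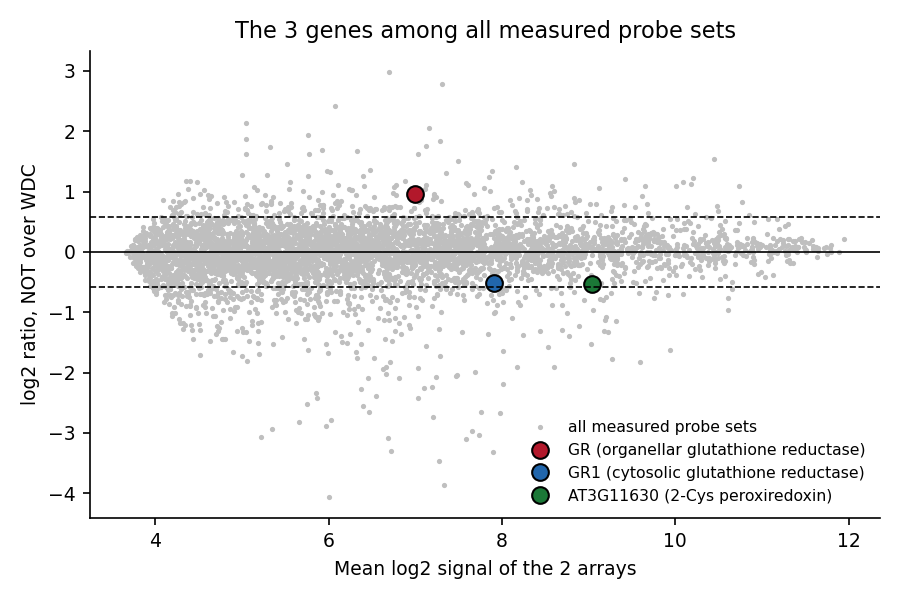
Log2 ratio of NOT over WDC against the mean log2 signal of both arrays for the 4753 measured probe sets (grey), with GR, GR1 and AT3G11630 in colour and dashed lines at 1.5-fold. GR, at 0.96, lies above the upper line, while GR1 at -0.51 and AT3G11630 at -0.54 lie just inside the lower one.

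The probe sets differ in how surely they report 1 gene. The probe set of GR1, 13261_at, has no mark. Those of GR (13262_s_at) and AT3G11630 (20162_s_at) carry the s mark, with which the platform flags probes shared by more than 1 transcript. The transcripts that share them are not listed in the annotation used here, so how much of either signal comes from related genes was not tested. For AT3G11630 a close relative is known, the chloroplast 2-Cys peroxiredoxin AT5G06290, for which no named probe set was found here. Among the 997 measured probe sets with the s mark, 7.62% passed the 1.5-fold rule as higher and 9.03% as lower in NOT, and their median log2 ratio was 0.05. Among the 3409 without any mark the shares were 5.25% and 8.95% and the median was -0.01. With marked probe sets left out, GR1 alone of the 3 genes stayed measured.

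Some transcripts that the array carries as controls varied by as much as GR1 and AT3G11630 did, and 5S ribosomal RNA by more than GR. This control moved most, with signals of 16.3 in WDC and 42.0 in NOT. Its log2 ratio was 1.37, in the direction of GR and further from 0. The WDC signal of 5S lay close to the floor of 12.5, unlike those of GR. The other ribosomal RNA control, 25S, stood at 0.23. The 3 probe sets of glyceraldehyde-3-phosphate dehydrogenase (GAPDH), a glycolytic enzyme often used as a reference, had log2 ratios of -0.60, -0.36 and -0.54 from the 5' end, the middle and the 3' end. Actin had a log2 ratio of -0.05. Ubiquitin gave -0.20, 0.57 and 0.15 from its 5', middle and 3' probe sets. For the 9 spiked-in controls the log2 ratios lay between -0.28 and -0.03 around a median of -0.14, and with the arrays scaled to them GR stood at 1.10, past 2-fold, GR1 at -0.36 and AT3G11630 at -0.39. The part of these differences in the ratios of the 3 genes was not tested. Of 46 listed photosynthesis genes that mark green leaf, 6 were measured, all within 1.5-fold (log2 ratios from -0.30 to 0.10), with summed signals of 10915 in NOT and 10958 in WDC. Of 13 listed markers of root, seed, flower and dividing cells, 0 had a named probe set, so RNA of those tissues was not checked.

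As listed here, the wider redox machinery around these enzymes is thinly covered by named probe sets. Of the 8247 non-control probe sets, 4383 had no gene name here, and whether listed genes are among them was not tested. Of 106 listed loci in 9 groups, 15 had a named probe set and all 15 were measured. Of these, 1 was at least 1.5-fold higher in NOT (GR) and 1 at least 1.5-fold lower (SIR), against 4.71% and 9.05% of 1934 named genes. Without the 3 genes the other 12 lay between -0.61 and 0.32 around a median of -0.17, beside 0.00 over all probe sets, and 0 of them were at least 1.5-fold higher. The listed glutathione peroxidases, superoxide dismutases, catalases and genes of ascorbate synthesis had no named probe set here. Nor had the genes listed for glutathione synthesis and for the reduction of S-nitrosoglutathione. Of the genes listed as cytosolic, GR1 was the only one measured by a named probe set. For the cytosol no other gene of the lists stands beside it, and compartments of named genes outside the lists were not looked up.

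In the ascorbate-glutathione cycle, where glutathione reductase does the last step, 2 listed genes were measured besides the reductases. Both encode ascorbate peroxidases, which use ascorbate to remove hydrogen peroxide. SAPX, the stromal enzyme, had signals of 140.2 in WDC and 125.4 in NOT, a log2 ratio of -0.16. TAPX, the thylakoid enzyme, had 161.4 in WDC and 165.8 in NOT, a log2 ratio of 0.04, while its other probe set stood at 0.05. Both stayed within 1.5-fold and far from the ratio of GR. SIR, sulfite reductase of the chloroplast, belongs to the route that makes the sulfide for cysteine and so for glutathione. Its signals were 323.5 in WDC and 212.6 in NOT, 1.52-fold lower in NOT (log2 ratio -0.61), on a probe set with the s mark. SIR fell short of the rule with median scaling and with control scaling.

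Peroxiredoxins draw on thioredoxins, and 8 listed genes of thioredoxins, their reductases and glutaredoxins were measured, all within 1.5-fold. Genes of these families outside the list were not looked up. NTRC, a chloroplast enzyme with a reductase and a thioredoxin domain that is known as a main electron donor of 2-Cys peroxiredoxins, had signals of 57.4 in WDC and 46.9 in NOT, a log2 ratio of -0.29. AT2G04700, the catalytic subunit of ferredoxin-thioredoxin reductase, which hands electrons from photosynthesis to thioredoxins, had 1067 in WDC and 1115 in NOT, a log2 ratio of 0.06. These 2 reductases differed in direction, and neither difference was as large as that of AT3G11630. Among chloroplast thioredoxins, TRXF2, which activates enzymes of carbon fixation in the light, stood at 0.32, and ty2 (thioredoxin Y2) stood at -0.37. The chloroplast glutaredoxins GrxC5 and AT2G20270, small proteins that use glutathione to reduce disulfides, stood at -0.38 and -0.18. In mitochondria, the other site of GR, thioredoxin TO1 (AT2G35010) had signals of 83.0 in WDC and 58.6 in NOT, a log2 ratio of -0.50, and TO2 (AT1G31020) stood at 0.01 with signals of 20.8 and 20.9. The NADP-dependent isocitrate dehydrogenase ICDH (AT1G54340), which supplies NADPH, stood at 0.01 with signals of 17.7 in WDC and 17.8 in NOT. Both signals lay close to the floor of 12.5. No other of the 14 genes listed for NADPH supply had a named probe set.

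By compartment, the redox lists held 9 measured chloroplast genes other than GR and AT3G11630. Their median log2 ratio was -0.18, with 3 above 0 and 6 below. The ratio of AT3G11630 lay at the lower end of their range, next to SIR, and that of GR lay 0.64 above the highest of them, TRXF2. The 2 mitochondrial thioredoxins lay below GR as well.

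**Figure D3:**
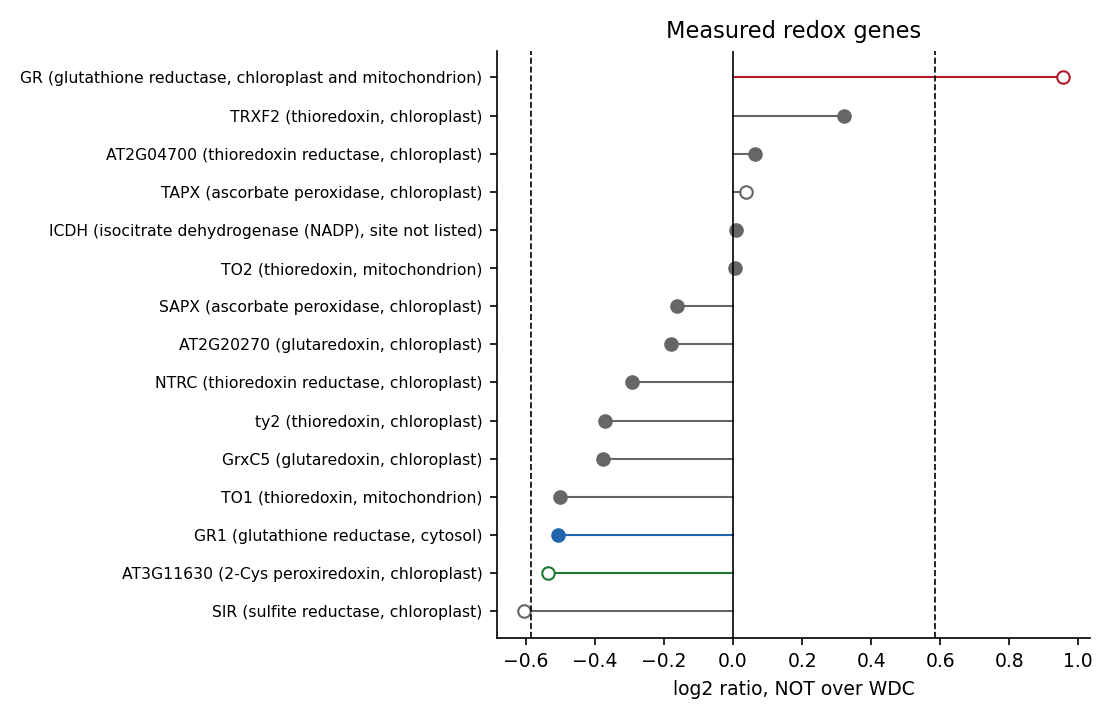
Log2 ratio of NOT over WDC for the 15 measured genes of the redox lists, ordered by ratio, with role and compartment. Open symbols are probe sets marked for shared sequence and dashed lines mark 1.5-fold. GR at 0.96 stands to the right of all others, and GR1 and AT3G11630 lie near SIR at the lower end.

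Genes with nearly the same ratio were sought among the other 1931 named genes, which over 2 arrays is a likeness of 1 number. Within 0.05 of GR there were 5 genes (0.259%), the nearest being AT1G51270, AT1G03210 and AT1G10820, at 0.95, 0.95 and 0.96. Signals of AT1G51270 in WDC (13.8) and of AT1G10820 (16.4) lay close to the floor of 12.5, unlike those of GR. Around GR1 there were 67 genes (3.47%), with AT5G25940, SGP1 and ATLP-1 nearest at -0.51 each. Around AT3G11630 there were 65 (3.37%), with CDI, AT4G32240 and AT5G21105 nearest at -0.53, -0.54 and -0.54. None of these 9 genes was on the redox lists.

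The opposite directions of GR and of the other 2 genes held under each of the 4 other scalings tried. Over 7 alternatives that measured it, the log2 ratio of GR ranged from 0.91 to 1.10, always past 1.5-fold. That of GR1 ranged from -0.54 to -0.36 over 8 and always fell short. AT3G11630 ranged from -0.59 to -0.39 over 7, and passed the rule with loess on mean signal (-0.59). The difference between GR and GR1 ranged from 1.40 to 1.48. A constant scaling, another floor and the mean over probe sets leave it unchanged by construction.

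**Figure D4:**
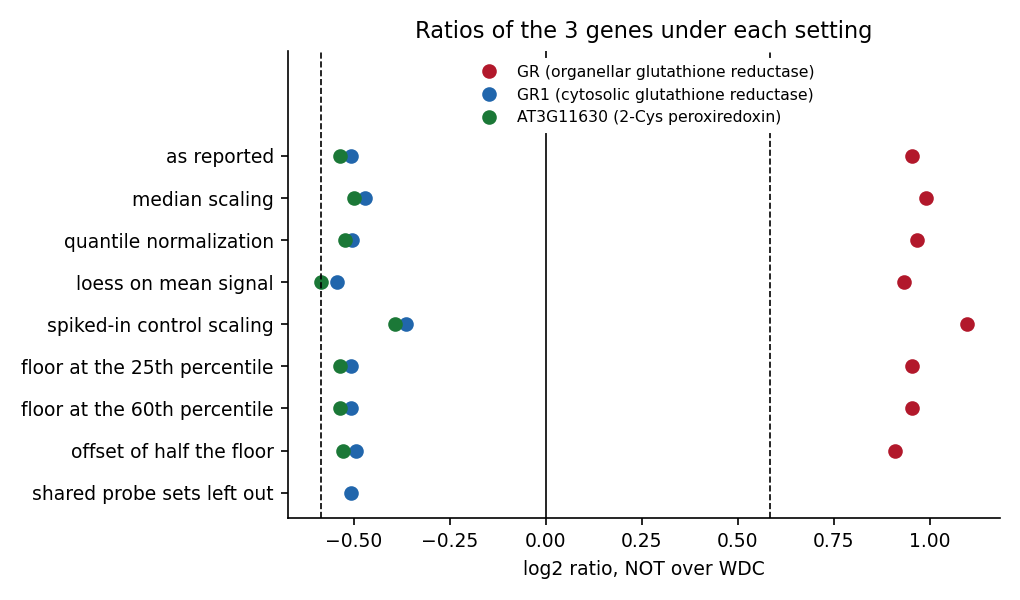
Log2 ratio of NOT over WDC of GR, GR1 and AT3G11630 as reported and under 8 other settings, with dashed lines at 1.5-fold. GR lies between 0.91 and 1.10 wherever it is measured, and the other 2 genes lie between -0.59 and -0.36.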

How the data were processed

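The deposited table holds a linear intensity for every probe set on either array, from 1-colour biotin arrays per the labels, with no detection calls. The authors had scaled them before deposit, as judged from the values, since the arrays shared a mean of 100.1 once 2% had been trimmed from either end. The summarisation software was not given in the sources used here, and neither was its version. Medians were 22.0 (NOT) and 23.7 (WDC). Scanner background averaged 75.02 and 76.78, per the labels. The number of arrays limits the precision.

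After removal of 50 controls from the 8297 probe sets, 8247 remained, of which 3794 named 1 gene in the platform annotation, 70 several and 4383 none here, and 3784 were matched by gene ID to a RefSeq table (assembly TAIR10.1, used for names only). The floor was the 40th percentile of pooled signals, and log2 ratios carried no offset. The brightest probe set stood for a gene that had several. Named genes were the 3 genes, every measured gene of the redox lists and the 3 nearest ratios to each. The genes, lists and rules were chosen with earlier results of these data known. Alternatives were median, quantile, loess (span 0.4) and spiked-in control scaling, an offset, floors at percentiles 25 and 60, no marked probe sets, other fold rules and the mean over probe sets. The counting was tested on simulated data with differences far past the 1.5-fold rule, which checks the code and not calls near the rule. No sequences of the genes or probes were used here. Scripts ran in Python 3.11.15 (pandas 2.3.3, numpy 2.4.6, statsmodels 0.14.6, scipy 1.17.1, matplotlib 3.10.9).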

Additional observations from a re-analysis of the deposited data

How the results depend on the processing

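No ratio of GR, GR1 or AT3G11630, and no difference between them, changed sign or moved by as much as the SD of 0.20 between probe sets of a gene, under any alternative that measured them. Floors cannot change a measured ratio, and constant scalings cannot change a difference. The mean over probe sets cannot change one either, because each of the 3 genes has 1 probe set. Without marked probe sets GR and AT3G11630 were not measured, the redox counts were 0 higher and 0 lower, and 179 of all probe sets were higher. Other counts moved too. At 2-fold, 67 probe sets were higher and 158 lower, with 0 redox genes either way, and at 1.3-fold the numbers were 655 and 766, with 4 redox genes lower (TO1, AT3G11630, GR1 and SIR). Lower redox genes numbered 0 with median scaling, 2 with loess and 0 with control scaling, which gave 504 higher probe sets. The floor at the 25th percentile gave 625 lower probe sets, and that at the 60th gave 182 higher and 211 lower, fewer probe sets being measured. No paired analysis was possible because each group has 1 array. Signals near the floor limit other ratios, whereas each of the 3 genes was at least 7.32 times the floor.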
